A study of Mus musculus with 8 samples.

Results

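Amino acid transporter families were followed in luminal mammary epithelial cells, the cells that make milk. Members were the genes whose platform symbol begins with Slc1a, Slc3a, Slc6a, Slc7a, Slc36a, Slc38a or Slc43a and a number, with 1 probe set per gene. The rule found 62 of 19505 genes, of which 19 belonged to Slc6, 16 to Slc7, 11 to Slc38, 7 to Slc1, 4 to Slc36, 3 to Slc43 and 2 to Slc3. The Slc7 count includes Slc7a6os, which lies beside Slc7a6 and was taken in by its name although it is not a carrier. Each member had a single probe set on the array.

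The 8 Affymetrix arrays held cells sorted by flow cytometry from digested mammary glands of mice at 15 days of pregnancy. Their labels name 4 samples control and the other 4 a3a6KO. The a3a6KO name refers to the integrin chains alpha 3 and alpha 6, encoded by Itga3 and Itga6. The series design calls the samples of a group biological replicates, and the titles of the a3a6KO samples also carry the word Ctrl. The sources used here give no alleles, Cre line, strain or age of the mice. The comparison asks how loss of these laminin receptors alters luminal cells, here for the genes that bring amino acids across membranes.

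A secreting mammary cell takes up amino acids from blood to build milk protein, and both essential and non-essential amino acids reach it through carriers of several families with overlapping substrates. Slc7a5 (LAT1) exchanges large neutral amino acids such as leucine and works only as a pair with the glycoprotein chain Slc3a2 (CD98), which also binds integrin beta chains. Sodium-coupled carriers such as Slc38a2 (SNAT2) and Slc1a5 (ASCT2) bring in small neutral amino acids and glutamine. Most Slc6 members are known as carriers of neurotransmitters, taurine, creatine or glycine in brain, kidney or gut.

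Values are log2 after RMA, and a value was called above background when it was higher than 95% of the values that the 5222 intron control sets had on that array. That limit lay between 6.38 and 6.90. Levels of different probe sets are not compared with each other. Sorted cells are a bulk sample, so fewer cells of a type and less RNA per cell cannot be told apart.

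The labels were checked first on the targeted genes. Itga6 ranged from 8.73 to 9.14 in control and from 3.65 to 8.21 in a3a6KO, where samples 3 and 4 lay nearest to control and above background. Itga3 ranged from 5.37 to 7.27 in control and from 4.34 to 5.60 in a3a6KO, with overlapping groups, and was above background on 1 control array and 0 a3a6KO arrays. All 11 measured luminal markers, Krt8 and Krt18 among them, were above background on every array. Of these, 7 had higher and 4 lower means in a3a6KO (median difference 0.0975). Muc1 (-0.745, without overlap) was the 1 luminal marker lower at an unadjusted p under 0.05. Of 12 basal and myoepithelial markers, 2 were above it on every array and 3 on none, and 11 had lower means in a3a6KO, with mean levels of 5.86 to 7.66 in control and 5.30 to 7.18 in a3a6KO. Their median difference was -0.51, and 3 were lower at an unadjusted p under 0.05, Krt5 by -2.54, Trp63 by -2.43 without overlap and Krt14 by -1.60. Endothelial markers were uneven between single libraries, with mean levels of 4.33 to 6.44 in control and 3.97 to 5.93 in a3a6KO. Of 11 secretory genes 9 were above background on every array, and 10 had lower means in a3a6KO (median difference -0.23). At an unadjusted p under 0.05, 3 were lower with overlapping groups, Lao1 (-0.785), Lalba (-0.74) and Wap (-0.585). Most markers of hormone-sensing luminal cells (5 of 6), fibroblasts (5 of 6), leukocytes (6 of 7) and adipocytes (6 of 7) were above background on no array. Their median differences were 0.033, -0.015, -0.23 and 0.078. Of the 6 fibroblast markers 2 had higher and 4 lower means in a3a6KO. The 2 higher, Col1a2 (0.61, without overlap) and Col3a1 (0.88), had an unadjusted p under 0.05, below background on every array. Dcn, above background on 1 array of each group, differed by -0.985.

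Few carriers stood above the intron control sets. On single arrays 5 to 8 of the 62 members were above background, and only Slc7a5, Slc3a2 and Slc38a2 were above it on all 8 arrays (4.84% of members, against 8.25% of all genes). Another 6 members, Slc1a5, Slc6a6, Slc7a6os, Slc38a1, Slc7a11 and Slc38a10, were above it on 2 to 6 arrays, and 53 members on none (85.5%, against 76.4% of all genes). With the 90th percentile as the limit, 7 members were above it on every array (11.3%, against 15.6% of all genes). They were the same 3 with Slc1a5, Slc6a6, Slc7a6os and Slc38a1. Above the intron median on every array lay 38 members, the same 3 among them (61.3%, against 64.0% of all genes).

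**Figure D1:**
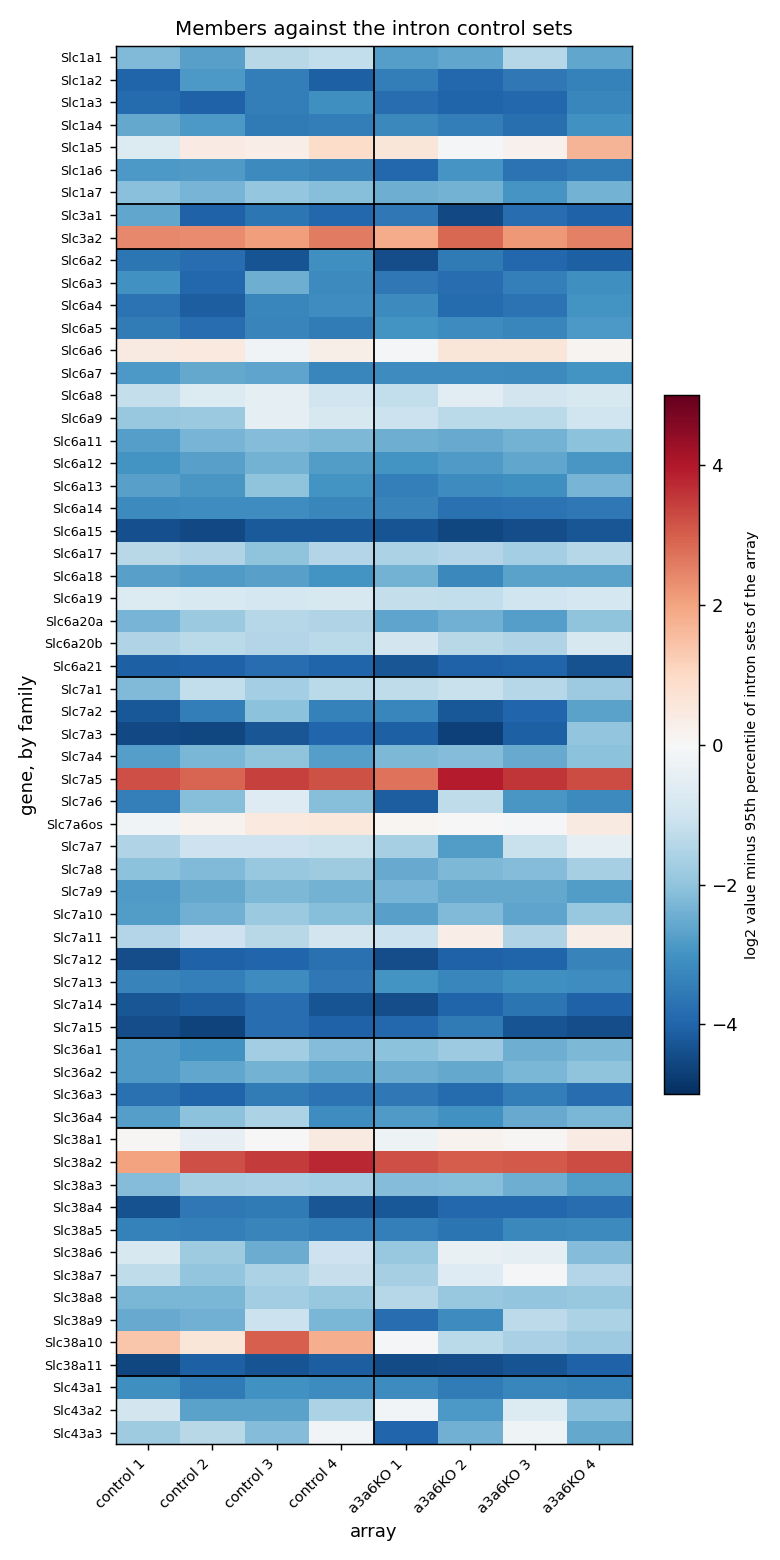
The log2 value minus the background limit of its array, for the 62 members (rows, by family) on the 8 arrays (columns), with red above and blue below that limit. Slc3a2, Slc7a5 and Slc38a2 are red on all 8 arrays, and Slc38a10 is red on the 4 control arrays only.

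The exchanger pair was well above background and differed by less than its spread. Slc7a5 was at 10.12, 9.60, 9.78 and 9.67 in control and at 9.46, 10.57, 10.19 and 9.71 in a3a6KO. Both the lowest and the highest of the 8 values came from the a3a6KO group. The difference of a3a6KO minus control, on the log2 scale as in all differences below, was 0.19 (SE 0.257, 95% interval -0.39 to 0.77, limma adjusted p = 0.964). Its heavy chain Slc3a2 was at 9.30, 9.06, 8.46 and 9.11 in control and at 8.60, 9.52, 8.78 and 8.98 in a3a6KO. The groups overlapped throughout, and the difference of -0.013 had a 95% interval from -0.59 to 0.56. These intervals leave room for changes of up to about those sizes, so an equal level is not shown.

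The other light chains that join Slc3a2 were measured below background, except Slc7a11. Slc7a6, Slc7a7, Slc7a8 and Slc7a10 were above it on 0 arrays, and Slc3a1, the heavy chain of the cystine carrier Slc7a9, and Slc7a9 itself were also above it on 0 arrays. Slc7a6 (y+LAT2) was uneven, from 3.49 to 5.74 in control and from 2.65 to 5.39 in a3a6KO. Across the 8 arrays Slc3a2 and Slc7a5 gave Pearson's r = 0.60 (exact permutation p = 0.117) and Spearman's rho = 0.38 (exact permutation p = 0.36). Without control 3 and a3a6KO 2, the samples farthest from the median of Slc3a2, r was 0.33. Of the 6 light chains set against Slc3a2, none passed after Benjamini-Hochberg adjustment (smallest adjusted exact permutation p = 0.353, for r).

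Slc7a11 (xCT), the light chain that brings in cystine in exchange for glutamate, was high in 2 of the 4 a3a6KO samples. It was at 5.42, 5.63, 4.98 and 5.58 in control and at 5.70, 7.01, 5.13 and 6.77 in a3a6KO. Only a3a6KO 2 and 4 were above background, and a3a6KO 3 lay within the control range. The difference was 0.75 (SE 0.399, limma adjusted p = 0.944, exact permutation p = 0.20), and it was 0.46 without a3a6KO 2 and 0.54 without a3a6KO 4.

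The Slc7a11 promoter is shown because it holds a pair of elements of the kind read by Atf4, the transcription factor of the amino acid response. The 250 bases before the start site (RefSeq, GRCm38.p6, chr3:50443614-50443863, minus strand) are printed with matches to TGATGNAAN on either strand in capitals. The same stretch of Slc38a10 (chr11:120151352-120151601, minus strand), the member with the largest difference, is given beside it and holds no match.
Slc7a11: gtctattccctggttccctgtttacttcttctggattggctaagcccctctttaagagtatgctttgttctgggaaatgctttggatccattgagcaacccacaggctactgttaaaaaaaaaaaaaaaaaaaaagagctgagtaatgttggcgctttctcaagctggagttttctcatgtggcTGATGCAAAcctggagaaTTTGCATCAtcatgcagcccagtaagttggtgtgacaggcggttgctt
Slc38a10: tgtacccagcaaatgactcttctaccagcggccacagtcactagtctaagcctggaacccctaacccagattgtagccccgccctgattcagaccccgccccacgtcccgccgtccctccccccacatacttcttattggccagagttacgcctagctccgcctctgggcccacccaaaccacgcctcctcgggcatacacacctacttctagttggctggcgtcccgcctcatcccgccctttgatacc

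The 2 matches of Slc7a11 face each other at -66 to -58 and -48 to -40 from the start site and do not overlap. Of the 62 members, 45 had a promoter in the RefSeq table, and 3 of these held the motif (6.67%), Slc7a11, Slc6a21 and Slc7a7, the last with 1 match in each of 2 of its 5 listed promoters. Among all 32851 promoters of this length 3.44% held it, or 3.89% of 27025 genes. A match is a description of the sequence and does not show binding.

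Slc38a10 (SNAT10), a carrier of glutamine and other amino acids, had the largest difference of the members. It was at 8.27, 7.27, 9.36 and 8.32 in control and at 6.72, 5.32, 5.01 and 4.63 in a3a6KO. All control values were above background and no a3a6KO value was, with a3a6KO 1 only 0.04 under its limit. The groups did not overlap. The means were 8.31 ± 0.85 and 5.42 ± 0.91 (SD, n = 4), a difference of -2.88 (SE 0.519, 95% interval -4.05 to -1.72). It did not pass over all genes (limma adjusted p = 0.714), and an exact permutation test gave p = 0.0286, the smallest that 70 assignments allow. As the a3a6KO values lie below the limit, the fold is given against that limit, at least 3.21-fold lower in a3a6KO. Slc38a10 was 1 of 2 genes, of 19505, above background on all 4 control arrays and on no a3a6KO array (0.0103% of all genes). The other was Mapkbp1.

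As the groups of Slc38a10 did not overlap, leaving samples out could not turn its direction. The difference ran from -3.32 to -2.53 with each sample left out, and was -2.29 without a3a6KO 3 and 4 together. With the basal keratin score (Krt5, Krt14 and Krt17) as a covariate it was -3.33. This keratin score was -0.81, 1.90, 1.35 and 0.40 in control and -1.19, -1.43, -0.10 and -0.11 in a3a6KO. The score of all 12 basal markers, which was not the covariate, was -0.39, 0.76, -0.30 and 1.41 in control and -0.84, -0.95, 0.93 and -0.62 in a3a6KO. Both scores are the mean deviation from each gene's mean. The probe set does not say which transcript of Slc38a10 was measured.

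The other Slc38 carriers had smaller differences in both directions. Slc38a2 was at 8.91, 9.91, 9.87 and 10.28 in control and at 10.00, 9.70, 9.69 and 9.72 in a3a6KO, a difference of 0.035 (95% interval -0.59 to 0.66), and control 1 lay below all others. Slc38a1 (SNAT1), its neighbour in the genome, ran from 6.28 to 6.95 in control and from 6.50 to 6.85 in a3a6KO, with a difference of 0.08. Slc38a3 (SNAT3), a glutamine carrier known from liver and kidney, was at 4.75, 5.02, 4.75 and 4.82 in control and at 4.60, 4.53, 4.16 and 3.65 in a3a6KO. Its groups did not overlap, and its difference was -0.60 (SE 0.226), but it was above background on 0 arrays. Slc38a9, a lysosomal carrier that reports arginine to mTORC1, ran from 4.21 to 5.31 in control and from 2.96 to 5.30 in a3a6KO. In the family, 5 of 11 members had lower means and the median difference was 0.02.

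**Figure D2:**
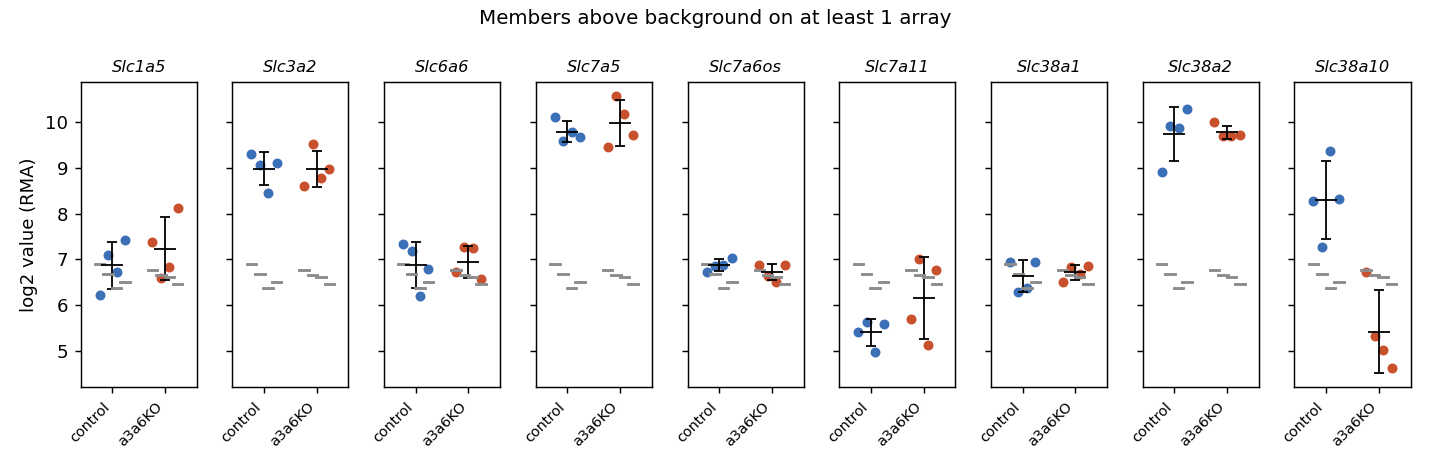
The log2 values of the 9 members above background on at least 1 array, with points for samples, black bars for the mean and SD of 4 samples, and a grey tick for the background limit of each array. The a3a6KO points of Slc38a10 all lie below the control points and at or below the grey ticks, while the other 8 members overlap between groups.

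The glutamine carrier Slc1a5 was near its background limit and uneven. It was at 6.22, 7.10, 6.73 and 7.42 in control and at 7.38, 6.59, 6.84 and 8.13 in a3a6KO, with the highest value in a3a6KO 4. The groups overlapped, and the difference was 0.37 (95% interval -0.46 to 1.20). The remaining Slc1 members, mostly glutamate carriers, were above background on 0 arrays. Among them Slc1a7 (EAAT5) did not overlap between groups, at 4.82, 4.35, 4.44 and 4.36 in control against 4.32, 4.28, 3.66 and 4.10 in a3a6KO, a difference of -0.40 (SE 0.202). The gap between the groups was small, since control 2 and a3a6KO 1 nearly met. The difference was -0.26 without a3a6KO 3, -0.19 without a3a6KO 3 and 4, and -0.69 with the basal keratin covariate.

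In the Slc6 family only the taurine carrier Slc6a6 exceeded background, on 6 arrays, at 7.34, 7.18, 6.20 and 6.78 in control and 6.72, 7.26, 7.24 and 6.58 in a3a6KO. The groups overlapped, with a difference of 0.075 (95% interval -0.56 to 0.71). Slc6a14, a broad carrier of neutral and cationic amino acids, was at 3.70, 3.59, 3.26 and 3.22 in control and at 3.43, 2.93, 2.92 and 2.86 in a3a6KO. Its difference was -0.41 (SE 0.196, limma adjusted p = 0.944), its groups overlapped through a3a6KO 1, and it was above background on 0 arrays. The creatine carrier Slc6a8 and the glycine carrier Slc6a9 were below background on every array and differed by -0.048 and 0.08.

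Slc6a20a, a carrier of proline and other imino acids, had the second smallest p of the members. It was at 4.57, 4.82, 4.96 and 5.01 in control and at 4.11, 4.24, 3.85 and 4.42 in a3a6KO, groups that did not overlap. The difference was -0.69 (SE 0.183, limma adjusted p = 0.944, exact permutation p = 0.0286), measured below background on every array. Its neighbouring copy Slc6a20b differed by 0.28 with overlapping groups, and how far probes of one copy read the other is not known here. The glycine carrier Slc6a5 was at 3.39, 2.89, 3.06 and 3.02 in control and 3.77, 3.50, 3.34 and 3.58 in a3a6KO, a difference of 0.46 (SE 0.175) with overlap at a single pair of samples. It too was above background on 0 arrays.

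The members of the Slc36 and Slc43 families were above background on 0 arrays. Slc36a2 (PAT2) was at 4.06, 4.08, 4.03 and 3.89 in control and at 4.30, 4.12, 4.32 and 4.42 in a3a6KO. Every a3a6KO value was the higher, by a difference of 0.28 (SE 0.147). Slc43a2 (LAT4) and Slc43a3 had wide spreads, with SDs of 0.88 to 1.51 in the groups and differences of 0.53 and -0.90. The cationic carriers Slc7a1, Slc7a2 and Slc7a3, which need no heavy chain, were above background on 0 arrays too and differed by 0.23, -0.24 and 0.63.

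Over all 62 members, 33 had lower and 29 higher means in a3a6KO, with a median difference of -0.038, beside -0.0025 over all genes, of which 50.1% were lower. By limma, 0 members and 0 of 19505 genes (0%) passed at an adjusted p of 0.05. At an unadjusted p under 0.05 there were 3 members lower, Slc38a10, Slc6a20a and Slc38a3, and 1 higher, Slc6a5. The shares were 4.84% and 1.61% of members, beside 2.73% and 2.4% of all genes. These 4 members became 2 without a3a6KO 4, where 1061 of 19505 genes had an unadjusted p under 0.05. Groups did not overlap in 5 members (8.06%, beside 2.94% of all genes). Of these, 4 were lower and 1 higher (6.45% and 1.61%), beside 1.56% and 1.38% of all genes. Slc38a10 apart, these were below background on every array. Of the 62 members 53 differed by less than 0.5 in size, beside 17304 of 19505 genes.

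**Figure D3:**
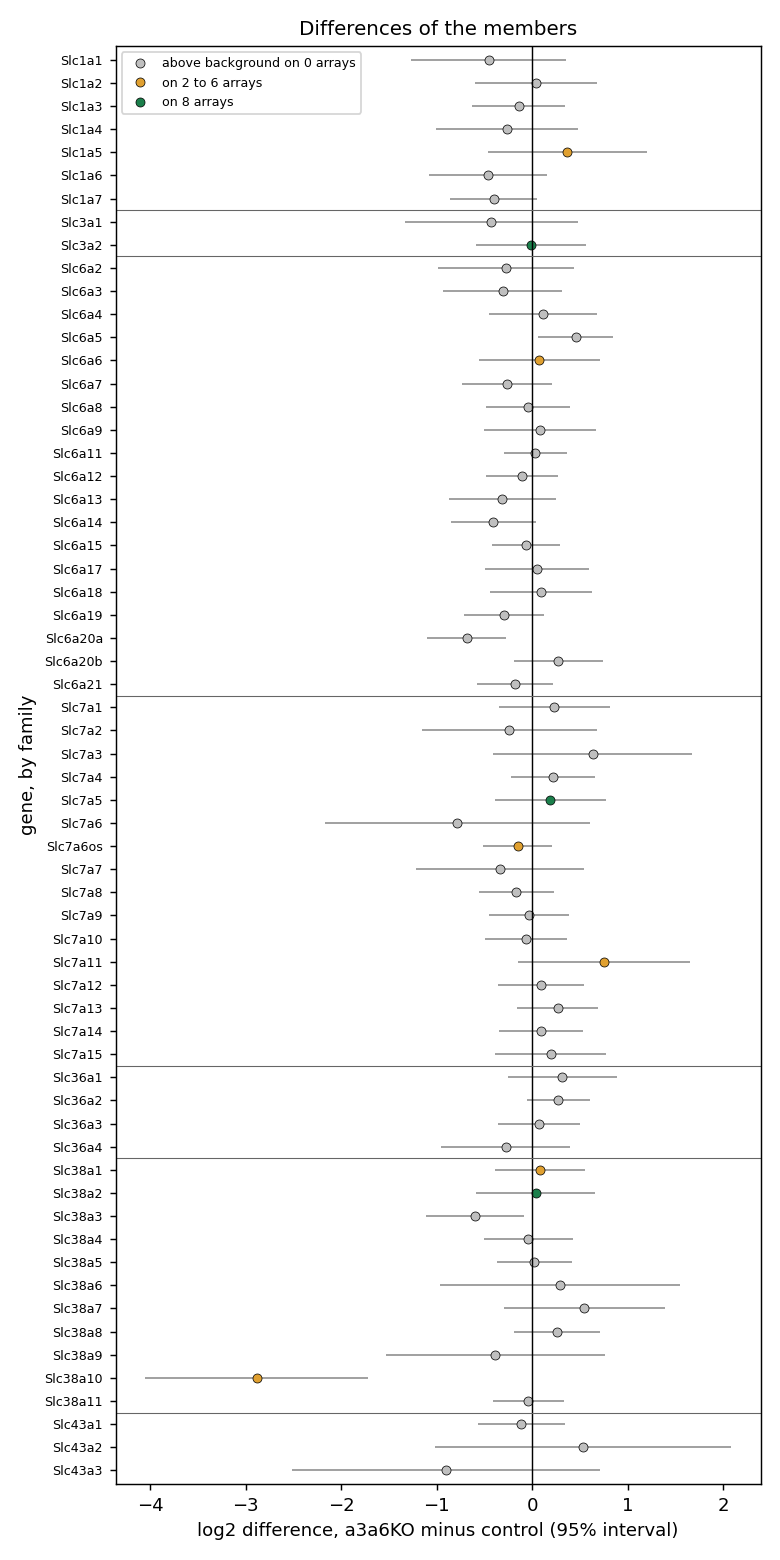
The log2 difference of a3a6KO minus control for the 62 members by family, with 95% intervals from limma and colours for the number of arrays above background. Slc38a10 lies at -2.88, and the other 61 differences lie between -0.90 and 0.75.

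Among 22 amino acid carriers outside these families, 15 had lower and 7 higher means in a3a6KO, with a median of -0.10. None passed the threshold over all genes. At an unadjusted p under 0.05 there was 1 lower, beside 2.73% of all genes. That carrier was Slc15a2 (PEPT2), which brings in small peptides with protons. It was at 8.11, 7.87, 6.91 and 7.98 in control and at 5.25, 7.01, 6.38 and 6.18 in a3a6KO, above background on 4 control arrays and on 1 a3a6KO array. The groups overlapped by 1 pair, control 3 and a3a6KO 2, and the difference was -1.51 (SE 0.39, limma adjusted p = 0.944, exact permutation p = 0.0571). The mitochondrial carriers Slc25a22 and Slc25a12, for glutamate and aspartate, differed by -0.79 and -0.70.

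Genes listed as answering amino acid shortage through Atf4 had lower means in 14 and higher means in 8 of 22 measured. The list held no carriers, so Slc7a11 was not among these genes. Their median was -0.11, and over all genes 50.1% had lower means. At an unadjusted p under 0.05 there were 3 lower and 0 higher, beside 2.73% and 2.4% of all genes, and 0 passed over all genes. These 3 are described here because their p was smallest in the list. Asparagine synthetase, Asns, was at 7.63, 7.76, 8.12 and 8.38 in control and at 7.63, 6.49, 7.22 and 6.78 in a3a6KO, a difference of -0.94 (SE 0.278). No a3a6KO value exceeded the lowest control value. The stress-induced gene Nupr1 was at 10.04, 9.48, 9.50 and 9.97 in control and 8.49, 9.29, 9.40 and 8.24 in a3a6KO, above background on all arrays and without overlap (-0.89, SE 0.293). Stc2, which encodes a secreted glycoprotein, differed by -1.45 (SE 0.305) without overlap, below background on every array.

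**Figure D4:**
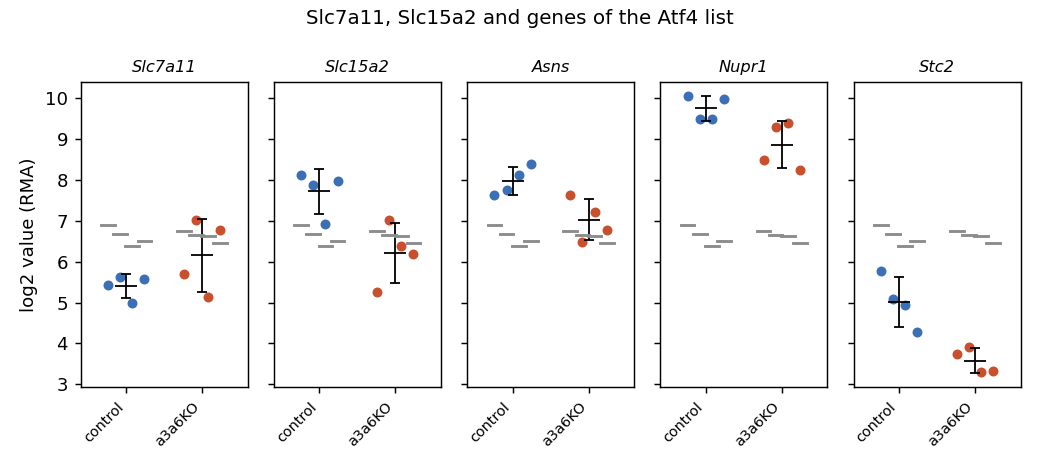
The log2 values of Slc7a11, the peptide carrier Slc15a2 and 3 genes of the Atf4 list by sample, with the mean and SD of 4 samples (black) and the background limit of each array (grey ticks). Slc7a11 has 2 a3a6KO points above the grey ticks, and the a3a6KO points of Nupr1 and Stc2 all lie below the control points.

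Genes that sense and use amino acids were counted in the same way. In the mTORC1 sensing list 15 of 31 genes were higher and 16 lower (median -0.0050), with 0 at an unadjusted p under 0.05; the smallest p belonged to Wdr24 (-0.35), Flcn (0.55) and Castor1 (0.31). Of 18 cytosolic aminoacyl tRNA synthetases, which load amino acids for translation, 13 were higher and 5 lower (median 0.06), again with 0 at an unadjusted p under 0.05, and 8 were above background on every array. Qars, for glutamine, differed by 0.49, Wars by -0.47 and Vars by -0.48. Among 17 genes of amino acid breakdown 12 were lower and 5 higher (median -0.26), with 2 lower at an unadjusted p under 0.05 and 0 past the threshold over all genes. They were the proline pathway gene Aldh4a1 (-0.41), below background, and Lao1, which encodes a milk enzyme that oxidises amino acids (-0.79, SE 0.328), above it on every array, while Prodh differed by 0.41. Over all genes, 5.13% had an unadjusted p under 0.05.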

How the data were processed

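The deposited values are log2, 1 per probe set and array. The authors made them with Affymetrix Expression Console and RMA, per the submitters' processing notes, which give no versions. RMA's quantile step makes arrays alike and would remove a shift shared by most genes. Of 28846 probe sets, 19572 had 1 symbol in GEO's platform annotation. The other 9274 had none or several, which were not counted apart, and were not assigned to a gene. The set with the highest mean was kept per gene, giving 19505 genes. Intron control sets are the sets whose IDs read neg.

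Groups came from the cell subtype label. All genes of the 8 arrays were fitted with limma (version 3.58.1, R version 4.3.3; lmFit, then eBayes, two-sided) with group as the term and Benjamini-Hochberg adjustment, after tests on simulated data. Exact permutation tests covered the 70 assignments, two-sided. The number of arrays limits the precision, and the median standard error was 0.234. No normalization or pseudocount was added.

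Members and lists were chosen with earlier results of these data known. Named members were Slc7a5, Slc3a2, Slc38a10, Slc6a14, those above background on all 4 arrays of a group, those at an unadjusted p under 0.05 and those without overlap. Others were named after their values were seen, and up to 3 genes of smallest p per list. Marker lists covered luminal, hormone-sensing, secretory, basal, endothelial, fibroblast, leukocyte and adipocyte cells.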

Additional observations from a re-analysis of the deposited data

Results flagged for a closer look

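Of 66 groups of 4 examined, 8 held a sample far from the other 3, where chance gives about 5%. Among the members, a3a6KO 1 stood high in Slc6a14 (3.43, others 2.86 to 2.93) and in Slc38a2 (10.0, others 9.69 to 9.72). The same sample stood low in the casein gene Csn2 (12.24, others 12.44 to 12.47) and in the score of amino acid carriers outside the member families (-0.33, others -0.045 to -0.023). In that score control 2 stood high (0.18, others 0.081 to 0.092). Control 4 stood high in the endothelial marker score (1.55, others -0.56 to -0.33) and in the adipocyte marker score (0.30, others -0.15 to -0.087). The score of hormone-sensing luminal markers was high in a3a6KO 4 (0.58, others -0.26 to -0.16).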

How the results depend on the processing

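Of the 10 named members, 0 passed the threshold under any of the 17 alternatives. Of these, 4 (the replicate block, the trend with robust fit, the mean of all sets and the filter on dim genes) cannot change a difference. Over the other 13, the direction held in 118 of 130 fits, turned in 11, all of Slc3a2, Slc38a2 or Slc7a5, and was exactly 0 for Slc3a2 with quantile normalization. In the 5 members whose groups did not overlap, leaving samples out could not turn the direction. With single samples left out, Slc3a2 ran from -0.20 to 0.11, Slc38a2 from -0.24 to 0.21 and Slc7a5 from -0.0058 to 0.36. Slc3a2 was also 0.078 without a3a6KO 3 and 4 together, an alternative chosen after seeing the data, and 0.015 with array medians subtracted. Slc7a5 was -0.034 with the basal keratin covariate. Without a3a6KO 3 and 4, Slc6a14 moved to -0.26 and Slc38a3 to -0.27, and with the keratin covariate Slc6a5 moved to 0.24. The count of members at an unadjusted p under 0.05 was 2 to 6 of 62 with single samples left out, beside 929 to 1061 of 19505 genes. It was 8 of 62 without a3a6KO 3 and 4, beside 1062 of 19505 genes. With dim genes left out it was 1, beside 163 of 2608 genes. Only 8 members were tested there, and their median difference was 0.055. The count of genes past the threshold was 0 in all alternatives but the basal keratin covariate, which called 1 gene, Irgm1, a gene of the interferon response. The count of members above background on every array was 7 with the limit at the 90th percentile and 3 with a stricter limit. Same-numbered samples of the groups did not deviate together (correlations -0.061 to 0.040, and 0 of 4 matched best with its own number). The labels state no pairing, and these correlations cannot show whether samples of the same number were handled together. The replicate block gave 5 members at an unadjusted p under 0.05, beside 1003 of 19505 genes, and 0 genes past the threshold. Members near background have uncertain sizes of difference.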

Other observations

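Genes above background on all arrays of one group and on none of the other numbered 4, with 2 (0.0103% of all genes) in each direction. Slc38a10 and Mapkbp1 (-2.42) were lower in a3a6KO, and Ehbp1 (0.95) and Dnajc21 (0.57) were higher. The values of Dnajc21 overlapped between groups, since the limit differs by array. These genes were chosen after their values were seen.

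Some members are neighbours among the protein-coding genes of RefSeq (GRCm38.p6). The 8 neighbouring pairs held 14 members, and the differences of a3a6KO minus control had the same sign in 5 pairs. Slc36a3, Slc36a2 and Slc36a1, which lie side by side, differed by 0.07, 0.28 and 0.32. Slc6a13 and Slc6a12, carriers of GABA and betaine, differed by -0.32 and -0.11. Slc6a20b and Slc6a20a differed by 0.28 and -0.69.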
